A study of Mus musculus with 12 samples.

Results

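The ubiquitin conjugating enzymes and ubiquitin-specific proteases of the mouse were followed in germ cells and gonadal soma at embryonic stage E13.5. Members were all genes of the deposited tables whose symbol is Ube2 followed by a letter and an optional number, or Usp followed by a number and an optional letter, with Usp9x, Usp9y and Usp29 left out. This rule used no measured value and gave 74 of 12845 genes, 30 Ube2 genes and 44 Usp genes, all 74 of which had passed the authors' gene filter. Several genes of the same biochemical classes carry other names and are described separately from the members.

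RNA was sequenced from male PGCs, male soma, female PGCs and female soma, with 3 libraries in each of the 4 groups. PGCs are primordial germ cells, the embryonic precursors of sperm and eggs. All 12 libraries came from untreated E13.5 gonads of the strain labelled Oct4GFPxICR, sired by Oct4GFP males, so that germ cells carry a fluorescent reporter driven by the germ cell and pluripotency gene Oct4. PGCs were the reporter-positive cells and soma the reporter-negative cells of a flow cytometric sort, and the soma groups therefore mix every other cell type of the gonad. How many embryos or litters entered each library is not stated, so p-values measure the spread between these libraries, which may be partly technical.

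Ubiquitin is a small protein that cells attach to other proteins to mark them for degradation, signalling or repair. It is activated by an E1 enzyme, passed to an E2 conjugating enzyme (most Ube2 genes) and transferred to its target with the help of an E3 ligase, which chooses the target. Deubiquitinases, of which the ubiquitin-specific proteases (Usp genes) are the largest family, remove it again. A few Ube2 genes carry related modifiers such as NEDD8 or ISG15 in place of ubiquitin. In the germ line this system is known for its part in DNA repair, histone ubiquitination, the meiotic divisions and sperm development, and mice that lack Ube2b have infertile males while mice that lack Ube2a have infertile females.

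Levels are given as CPM (reads of a gene scaled to a common library total), computed from the whole reads recovered from the deposited values, and levels of different genes are compared only per transcript length, as TPM. Libraries held 6454322 to 24791414 reads. Differences are log2 differences in the authors' read depth normalized table unless the cell number table is named, tested with limma across all 12845 genes and called at a Benjamini-Hochberg adjusted p under 0.05. The read depth values are compressed: a log2 unit of reads corresponds to 0.751 of the read depth values over the 74 members and to 0.482 over all genes under 100 mean reads, so these differences understate the ratio of reads. Germ cell markers (6 genes, Pou5f1, Ddx4 and Dazl among them) summed to 3002 to 4339 CPM in PGC libraries, 10.1 to 16.8 CPM in male soma and 15.8 to 150 CPM in female soma. Markers of 8 erythroid genes summed to at most 10.8 CPM in PGCs, 3415 to 8596 CPM in male soma and 17610 to 29560 CPM in female soma. The defining markers thus matched the labels of the sort. Some soma transcripts were present in PGC libraries. Markers of supporting and gonadal soma (8 genes) summed to 54.2 to 110 CPM in male PGCs and 1548 to 1680 CPM in male soma. In females they summed to 5.83 to 34.4 CPM in PGCs and 588.7 to 740.5 CPM in soma. The part of such transcripts in the PGC levels was not tested. All 3 female soma libraries carried more red blood cell transcripts than the male ones, and female soma replicates 1 and 2 also more germ cell transcripts. In the cell number table, male soma replicate 3 stood apart, with a median log2 value over genes of 5.25 against 4.33 and 4.29 in the other male soma libraries.

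The promoters of some members whose levels differed most between the groups are shown first, because each of them comes back in the results below. No window is shown for Usp43 and Usp25, which were also among the largest rises and falls. Windows are the bases before a RefSeq gene start (GRCm38.p6), at most 250 long and trimmed where they ran into an annotated exon. They are written in the direction of the gene, with matches on either strand in capitals to the CCAAT box, the GC box (GGGCGG), the E-box (CACGTG), the cyclic AMP response element (TGACGTCA) and an E2F element (GCGGGAAA), none of which contains another. Usp26, Ube2t and Usp28 were among the largest rises in PGCs, Ube2l6 was the largest fall, Usp10 and Ube2a differed between male and female PGCs, and Ube2b is the close paralog of Ube2a. The Ube2b window shown was trimmed at an annotated exon of Ube2b itself. Another Ube2b window, upstream of it, of 66 bases with 5 CpG and 1 E-box, is not shown.
Usp26 (chrX:51801234-51801483, - strand, 5 CpG): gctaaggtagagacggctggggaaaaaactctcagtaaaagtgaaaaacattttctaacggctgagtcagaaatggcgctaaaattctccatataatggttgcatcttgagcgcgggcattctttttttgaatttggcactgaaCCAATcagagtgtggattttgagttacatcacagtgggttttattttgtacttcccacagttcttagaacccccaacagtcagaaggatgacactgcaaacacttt
Ube2t (chr1:134962315-134962564, + strand, 19 CpG): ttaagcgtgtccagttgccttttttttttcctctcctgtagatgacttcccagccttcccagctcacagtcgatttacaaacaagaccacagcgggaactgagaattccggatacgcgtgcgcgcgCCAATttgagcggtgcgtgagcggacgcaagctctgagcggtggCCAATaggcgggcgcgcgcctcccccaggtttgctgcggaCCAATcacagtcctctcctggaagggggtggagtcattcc
Usp28 (chr9:48985135-48985374, + strand, 25 CpG): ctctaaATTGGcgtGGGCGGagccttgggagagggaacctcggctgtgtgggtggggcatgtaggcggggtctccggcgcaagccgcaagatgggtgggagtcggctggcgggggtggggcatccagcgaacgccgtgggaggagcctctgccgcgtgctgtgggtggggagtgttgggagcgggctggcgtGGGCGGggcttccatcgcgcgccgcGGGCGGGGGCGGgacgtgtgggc
Ube2a (chrX:36874112-36874294, + strand, 11 CpG): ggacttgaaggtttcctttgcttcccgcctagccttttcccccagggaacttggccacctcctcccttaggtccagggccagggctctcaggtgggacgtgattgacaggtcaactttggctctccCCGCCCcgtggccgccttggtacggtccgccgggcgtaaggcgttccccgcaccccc
Ube2b (chr11:52000492-52000676, - strand, 25 CpG): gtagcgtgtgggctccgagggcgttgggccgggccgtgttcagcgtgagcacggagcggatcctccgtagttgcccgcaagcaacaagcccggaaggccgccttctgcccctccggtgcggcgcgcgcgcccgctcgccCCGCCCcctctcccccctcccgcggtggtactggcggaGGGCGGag
Usp10 (chr8:119910110-119910359, + strand, 6 CpG): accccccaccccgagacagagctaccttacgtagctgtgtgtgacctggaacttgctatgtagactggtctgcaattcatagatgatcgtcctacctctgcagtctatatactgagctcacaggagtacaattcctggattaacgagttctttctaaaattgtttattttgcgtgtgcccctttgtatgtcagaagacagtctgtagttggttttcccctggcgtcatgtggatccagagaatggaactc
Ube2l6 (chr2:84798578-84798827, + strand, 11 CpG): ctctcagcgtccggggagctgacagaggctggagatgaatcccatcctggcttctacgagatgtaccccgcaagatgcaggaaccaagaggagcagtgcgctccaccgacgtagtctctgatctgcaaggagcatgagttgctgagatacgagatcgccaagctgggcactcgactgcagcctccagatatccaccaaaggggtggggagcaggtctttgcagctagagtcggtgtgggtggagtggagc

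These windows differ in composition. A RefSeq window was found for 58 of the 74 members (69 windows). Member windows held a median of 25 CpG dinucleotides (quartiles 15 and 30), against 6 (quartiles 2 and 16) over all 32851 windows. The latter were not limited to genes that passed the authors' gene filter, as all members had. The part of that filter in the contrasts of this paragraph was not tested. Usp26, Usp10 and Ube2l6, which are among the members that differ most between groups, held 5, 6 and 11 CpG in a full window, below the lower quartile of the members. Ube2t and Usp28, also among them, lay within the member quartiles, with 19 CpG in a full window and 25 in 240 bases. The windows shown are a chosen part of such members and do not stand for all of them. The GC box occurred in 72.5% of member windows and 32.7% of all windows, and CCAAT in 18.8% and 33.8%. The Ube2t window held CCAAT 3 times. E-boxes occurred in 7.25% of member windows and 6.02% of all, the cyclic AMP response element in 1.45% and 1.55%, and the E2F element in 2.9% and 0.895%. These are letter matches and not binding sites, and windows that overlap or belong to one gene are not independent.

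Transcripts of the conjugating enzymes and proteases took a larger share of the reads in PGCs than in soma. Summed over the 74 members, they made up 10709 ± 98.3 CPM in male PGCs and 6879 ± 104 CPM in male soma (SD, n = 3 each), a ratio of 1.56. In females the sums were 10222 ± 65.7 CPM and 7141 ± 194 CPM, a ratio of 1.43. The 30 Ube2 genes rose from 3116 ± 33.6 to 4789 ± 102 CPM in males and the 44 Usp genes from 3763 ± 81.5 to 5920 ± 200 CPM. Neither sum overlapped between PGC and soma libraries of either sex. In the cell number table the male sum was 4.56 times as high in PGCs as in soma, and 6.01 times without male soma replicate 3, and the female sum was 7.68 times as high. Most genes rose on that scale: the median log2 difference over all genes was 1.42 in males and 2.36 in females. The members thus share part of these ratios with the other genes. In bulk samples, fewer cells of a type and less RNA per cell cannot be told apart.

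**Figure D1:**
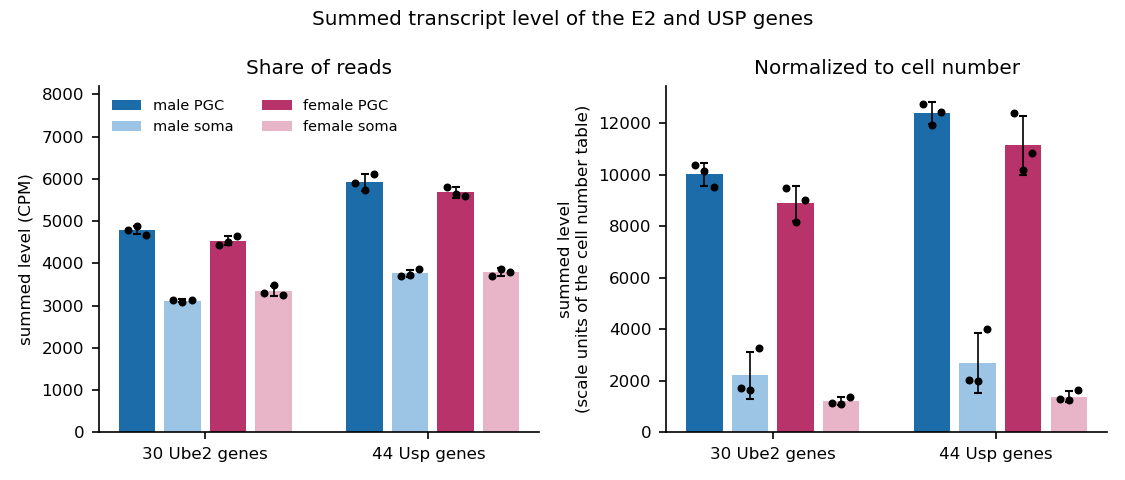
Summed transcript level of the 30 Ube2 genes and the 44 Usp genes in each library, as CPM (left) and on the linear scale of the authors' cell number table (right). Bars are group means, error bars SD and points the 3 libraries of a group, and on the right the highest male soma point is replicate 3.

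Gene by gene, 50 of the 74 members were higher in PGCs than in soma on the mean of both sexes, 19 were lower and 5 were not called (limma, adjusted p under 0.05). That is 67.6% of members higher, where 41.4% of all genes were, and 25.7% lower, where 45.3% of all genes were. The median difference was 0.52 for members and -0.04 for all genes. The medians of the libraries themselves differed by -0.225, PGC minus soma, and with each library centred on its median the split was 54 higher and 8 lower (50.2% and 37.8% of all genes). These 8 were Ube2l6, Usp25, Usp27x, Ube2m, Usp46, Usp10, Ube2r2 and Usp33. No other member of the 19 was called lower with centring. In CPM, all 6 PGC libraries lay above all 6 soma libraries for 35 members (24.7% of all genes) and below them for 7 (32% of all genes). By cell number, 71 members were higher (74.3% of all genes) and 2 lower (16.5% of all genes), with a median of 2.64 against 1.89 over all genes, and with median centring that split was also 54 and 8 (48.3% and 39.3% of all genes). Ube2l6, at -3.70, and Usp25, at -1.92, were the members lower per cell, and Usp27x, at -0.35, was not called.

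**Figure D2:**
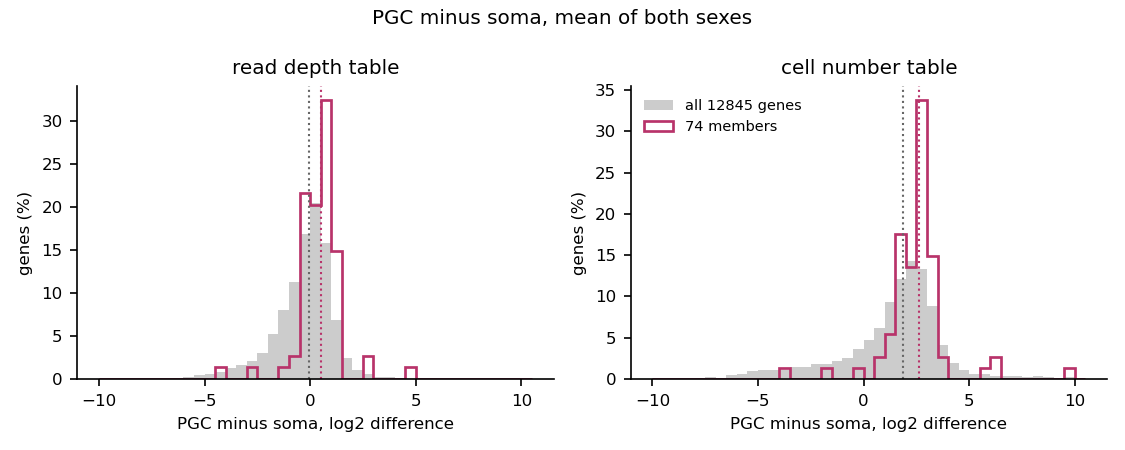
Distribution of PGC minus soma log2 differences (mean of both sexes) over all 12845 genes (grey) and the 74 members (red outline), as a percentage of genes, in the read depth table (left) and the cell number table (right). Dotted lines are the medians, 0.52 for members and -0.04 for all genes on the left, 2.64 and 1.89 on the right.

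Conjugating enzymes of DNA repair and of lysine 63 chains were higher in PGCs. Of 6 such genes, 5 rose and none fell, with a median difference of 0.92 (the percentages of all genes given above are the background for every role group). Ube2t, which with the Fanconi anaemia ligase attaches ubiquitin to proteins at DNA crosslinks, rose the most. Ube2t was at 54.9, 48.3 and 44.4 CPM in male PGCs, 119, 127 and 93.3 in female PGCs, 4.70, 4.56 and 5.06 in male soma, and 5.56, 17.8 and 5.34 in female soma. All PGC libraries lay above all soma libraries, and the difference was 2.65 ± 0.17 (SE, limma adjusted p = 1.52e-09). The female soma library at 17.8 CPM, replicate 2, was also the one with the highest germ cell marker sum, 150 CPM against 89.7 and 15.8. The part of those germ cell transcripts in the Ube2t level of soma was not tested.

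Ube2n, the E2 that builds lysine 63 chains, rose by 1.11 ± 0.04 (limma adjusted p = 2.81e-12), from similar levels in both somas (123 ± 1.82 male, 120.0 ± 3.47 female, SD, n = 3) to 342 ± 6.71 in male and 276 ± 12.0 CPM in female PGCs. It works with one of 2 catalytically inactive partners, Ube2v1 and Ube2v2. Ube2v2 rose by 0.74 ± 0.06 (limma adjusted p = 1.94e-08), and Ube2v1 differed by 0.10 ± 0.05 (limma adjusted p = 0.0628), which did not pass the threshold. Ube2v1 stood at 202, 184 and 189 CPM in male PGCs, 194, 169 and 182 in male soma, 158, 185 and 192 in female PGCs, and 166, 163 and 179 in female soma. Its libraries overlapped in all groups, and with median centring its difference was 0.33 and past the threshold. Ube2v1 shares 1398 exonic bases on the same strand with the readthrough gene Gm20431, so its count is uncertain.

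Ube2a and Ube2b are near-identical homologs of yeast Rad6, which ubiquitinate histone H2B with Rnf20 and Rnf40 and the replication clamp PCNA with Rad18. They showed opposite sex patterns in PGCs. Ube2a, on the X chromosome, was at 35.9, 45.6 and 35.5 CPM in male PGCs, 137, 136 and 136 in female PGCs, 32.3, 25.1 and 27.5 in male soma, and 24.0, 33.3 and 21.5 in female soma. The female PGC libraries stood alone, with no other library above 45.6 CPM, and the female PGC minus soma difference of 1.83 ± 0.12 exceeded the male difference of 0.43 ± 0.12 by 1.40 ± 0.16 (limma adjusted p of the difference = 9.82e-06). Ube2b was at 215, 210.0 and 226 CPM in male PGCs, 156, 146 and 167 in female PGCs, 88.4, 96.2 and 90.2 in male soma, and 122, 123 and 102 in female soma. It was highest in male PGCs, with no overlap between any 2 groups, and its PGC minus soma difference of 1.07 ± 0.07 in males exceeded the 0.34 ± 0.07 of females by 0.73 (interaction -0.73 ± 0.09, limma adjusted p = 1.8e-05).

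The pair of conjugating enzymes of the anaphase-promoting complex, the ligase that ends mitosis and meiosis, both rose. Ube2s, which extends chains on its targets, was at 403, 442 and 339 CPM in male PGCs, 338, 386 and 391 in female PGCs, 165, 147 and 153 in male soma, and 145, 161 and 151 in female soma. The rise of 1.09 ± 0.06 (limma adjusted p = 1.9e-10) was without overlap, and per transcript length Ube2s had the highest mean level of all members, 571 TPM over the 4 group means. Ube2s shares 183 exonic bases with Rpl28 on the opposite strand. Ube2c, which starts the chains, was at 163, 227 and 144 CPM in male PGCs against 78.7, 77.0 and 78.7 in male soma. In female PGCs it was at 79.6, 75.9 and 114 CPM against 76.0 to 100 in female soma. Only the male groups were apart: the difference was 1.01 ± 0.14 in males (limma adjusted p = 8.32e-06) and 0.06 ± 0.14 in females (limma adjusted p = 0.705), and the sexes differed by -0.95 ± 0.19 (limma adjusted p of the difference = 0.000873).

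Among 13 conjugating enzymes grouped here under broad ubiquitin conjugation, 7 rose, 4 fell and 2 were not called, with a median of 0.25. Ube2d3, of the family most widely used in test tube ubiquitination, was at 448, 534 and 499 CPM in male PGCs, 504, 512 and 539 in female PGCs, 296, 315 and 315 in male soma, and 285, 308 and 288 in female soma. It rose by 0.65 ± 0.04 (limma adjusted p = 1.55e-09) and had 279 TPM over the 4 group means. Its paralog Ube2d1 rose in male PGCs (0.52 ± 0.09) and fell in female PGCs (-0.51 ± 0.09), an interaction of -1.02 ± 0.12 (limma adjusted p = 1.15e-05). Ube2d1 stood at 50.8 ± 4.63 CPM in male against 22.9 ± 1.84 in female PGCs, and at 33.9 ± 2.72 in male against 37.3 ± 1.95 CPM in female soma (SD, n = 3). The other members of the group that rose were Ube2z (1.01), Ube2q2 (0.80), Ube2e1 (0.77), Ube2h (0.55), Ube2q1 (0.53) and Ube2l3 (0.25). On the opposite strand, Ube2l3 shares 1670 exonic bases with Ydjc and Ube2e1 shares 718 with Nkiras1.

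Ube2r2, which with its paralog Cdc34 charges the cullin ligases, was at 173, 170.5 and 175 CPM in male PGCs, 191, 185 and 206 in male soma, 106, 121 and 113 in female PGCs, and 217, 242 and 230.0 in female soma. The female PGC libraries were the low ones. The fall of 0.42 ± 0.04 (limma adjusted p = 2.1e-07) came with -0.80 in females and -0.04 in males, where it did not pass the threshold (limma adjusted p = 0.555). Ube2e3 (-0.27), Ube2o (-0.22) and Ube2w (-0.16) also fell on the mean of both sexes. These mean differences lay near the -0.225 by which the medians of PGC and soma libraries differed. Ube2e3 fell in males (-0.51) and was not called in females (-0.04, limma adjusted p = 0.604). Ube2o (-0.61) and Ube2w (-0.36) fell in females and were not called in males (0.16 and 0.03). Ube2d1, at 0.01, and Ube2e2, at -0.07, were not called on the mean of both sexes.

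Ube2o, known for clearing ribosomes and surplus proteins from maturing red blood cells, differed mainly in soma. It was at 146, 157 and 149 CPM in male soma, 330.0, 320.0 and 249 in female soma, 167, 161 and 149 in male PGCs, and 182, 174 and 172 in female PGCs. Every female soma library lay above all others, and female soma exceeded male soma by 0.76 ± 0.08 (limma adjusted p = 7.02e-06). The erythroid markers of female soma summed to 29560, 27310 and 17610 CPM in the same order of replicates, against at most 8596 CPM in male soma, and their part in this difference was not tested.

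Of 5 conjugating enzymes tied to the endoplasmic reticulum or to lysine 48 chains, 4 rose and 1 fell. Ube2g1 (0.92), Ube2k (0.73), Ube2j2 (0.49) and Ube2j1 (0.32) were higher in PGCs, and Ube2g2, which serves the degradation of misfolded proteins of the endoplasmic reticulum, was lower (-0.25 ± 0.06, limma adjusted p = 0.00191). Ube2g2 fell in males (-0.38, limma adjusted p = 0.00138) and was not called in females (-0.13, limma adjusted p = 0.203). Its mean fall was close to the -0.225 by which the medians of PGC and soma libraries differed. On the mean of both sexes, the paralogs Ube2g1 and Ube2g2 thus changed in opposite directions, while Ube2j1 and Ube2j2 both rose.

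Of the 3 enzymes that carry NEDD8 or ISG15, 1 rose and 2 fell. The NEDD8 enzymes moved in opposite directions. Ube2f, which modifies the cullin CUL5, rose by 0.68 ± 0.07 (limma adjusted p = 4.1e-07), and Ube2m, which modifies the other cullins, fell by 0.85 ± 0.06 (limma adjusted p = 7.48e-09). Ube2m was at 37.4, 43.1 and 38.8 CPM in male PGCs, 112, 108 and 110.2 in male soma, 51.1, 66.0 and 53.3 in female PGCs, and 103, 94.0 and 112 in female soma. All PGC libraries lay below all soma libraries.

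Ube2l6, the E2 for the interferon-induced modifier ISG15, showed the largest fall of all members. It was at 0.860, 2.50 and 1.19 CPM in male PGCs, 1.83, 1.24 and 1.34 in female PGCs, 41.4, 51.8 and 35.0 in male soma, and 162, 171 and 97.0 in female soma. Mean CPM was 28.2 times higher in soma than in PGCs of males and 97.5 times higher in females, and the fall was 4.08 ± 0.16 on the log2 scale (limma adjusted p = 9.36e-12). Female soma exceeded male soma by 1.37 ± 0.22 (limma adjusted p = 0.000465). The summed erythroid markers differed between the somas in the same direction, as given above, and 7 macrophage markers summed to 352 to 534 CPM in female and 167 to 230 CPM in male soma. Their part in the Ube2l6 level was not tested. Uba7, the E1 enzyme for ISG15, fell with it, by 2.24 ± 0.13 (limma adjusted p = 5.81e-10), and stood at 1.56 ± 0.524 CPM in male and 0.281 ± 0.287 CPM in female PGCs, against 12.4 ± 2.07 in male and 23.7 ± 8.50 CPM in female soma (SD, n = 3).

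**Figure D3:**
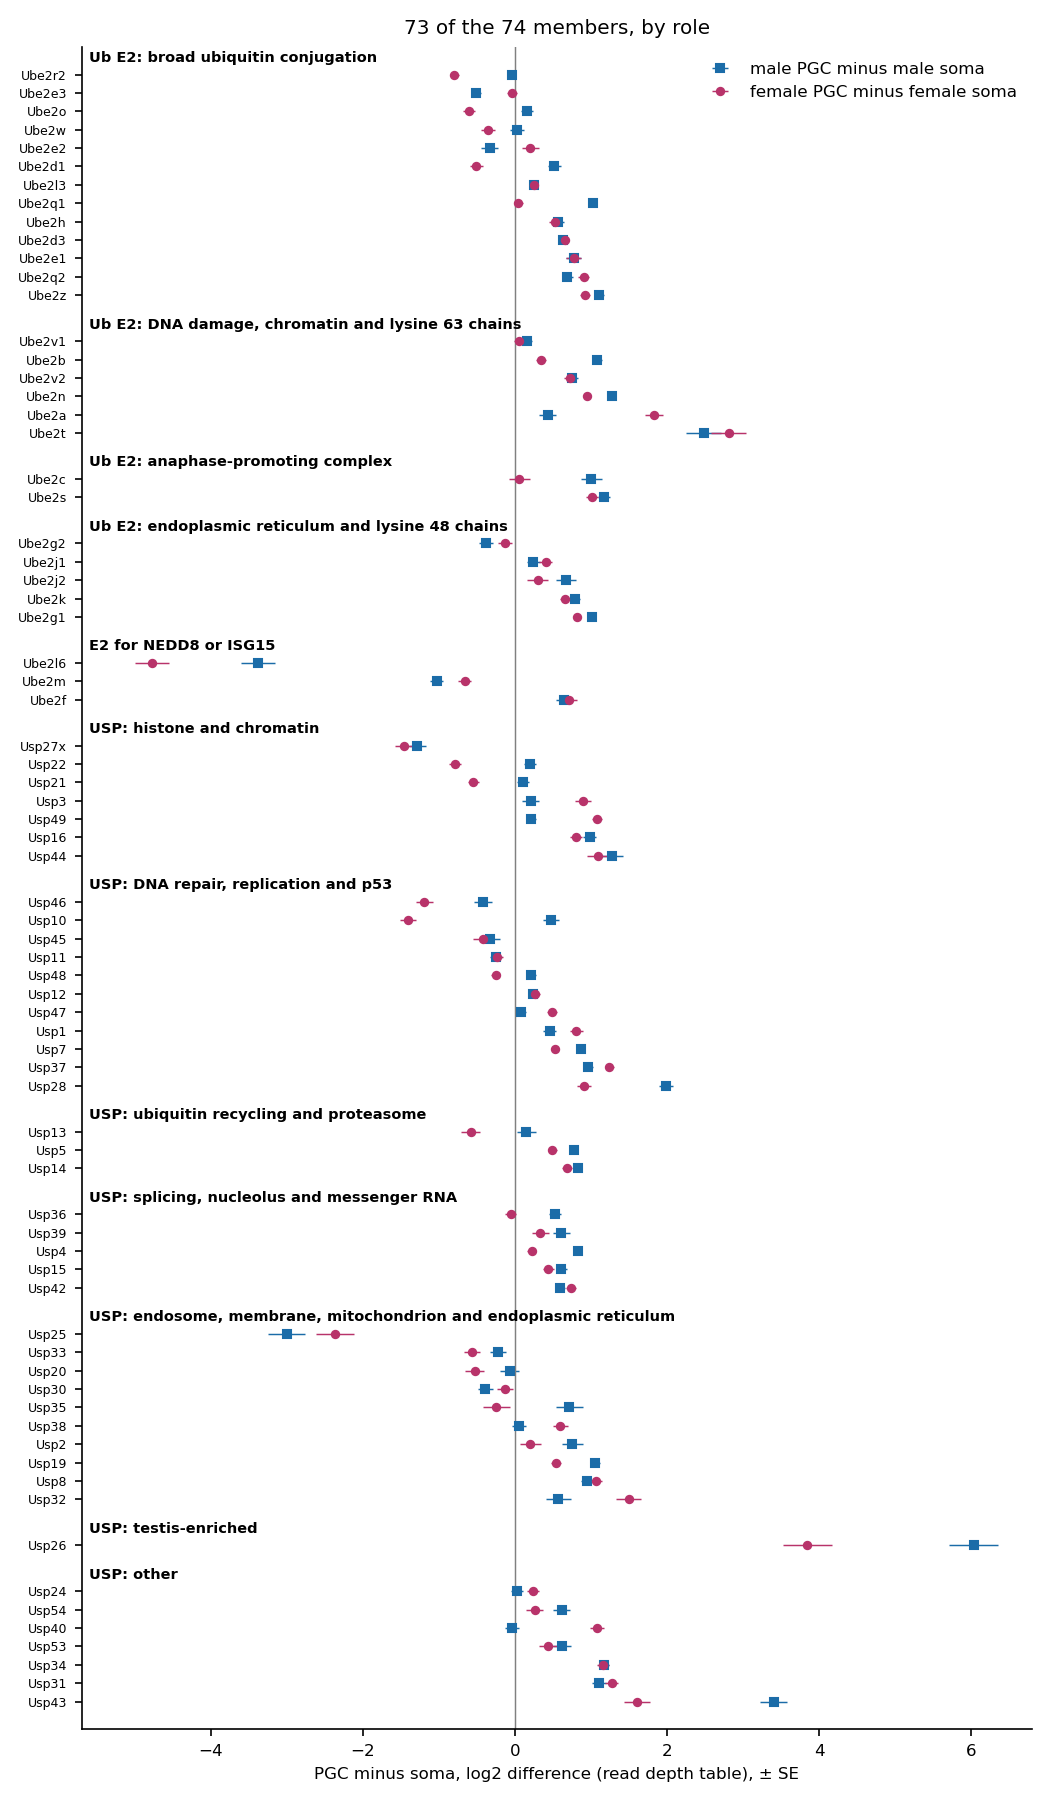
PGC minus soma log2 difference (read depth table, horizontal axis) of 73 of the 74 members, grouped by role, in males (blue squares) and females (red circles), with bars for the SE of the fit. Most points lie to the right of 0, Usp26 reaches 6.04 in males, and Ube2l6 reaches -4.77 in females.

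Among the proteases, Usp26 stood furthest from soma. It is an X-linked gene known for its expression in testis. Usp26 was at 117, 86.2 and 121 CPM in male PGCs, 36.8, 40.0 and 31.2 in female PGCs, 0.109, 0.0403 and 0.435 in male soma, and 1.22, 1.38 and 0 in female soma. Male PGC libraries were the highest, female PGC libraries came next, and no soma library reached 2 CPM. The rise was 4.94 ± 0.23 averaged over the sexes (limma adjusted p = 5.62e-11), and female PGCs were lower than male PGCs by 1.41 (-1.41 ± 0.32, limma adjusted p = 0.00155). That last difference was -1.58 with adjusted p = 0.0951 in limma on log2(CPM + 0.1). The sex difference in its rise, -2.19 ± 0.45 (limma adjusted p = 0.00107), rests partly on soma levels near 0 and was not past the threshold with voom on the recovered reads (-3.22, adjusted p = 0.12). Female soma replicates 1 and 2, where Usp26 had reads, also had the higher germ cell marker sums (89.7 and 150 CPM against 15.8 in replicate 3). The part of those transcripts was not tested.

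The 7 proteases that act on histones or chromatin were split, and 4 rose while 3 fell. Of the 3, only Usp27x was called lower with median centring. Usp44, which acts on histone H2B and in the spindle checkpoint, was at 5.97, 5.54 and 3.90 CPM in male PGCs, 8.28, 8.21 and 8.32 in female PGCs, 0, 0 and 0.326 in male soma, and 1.33, 2.30 and 0.509 in female soma. Its PGC libraries all lay above its soma libraries, and it rose by 1.18 ± 0.10 (limma adjusted p = 5.59e-08). In female soma its 3 values follow the order of the germ cell marker sums, whose part was not tested. Usp16, a histone H2A protease, rose in both sexes (0.98 in males and 0.81 in females).

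Other histone proteases differed by sex. Usp3, which acts on histone H2A, was at 73.5, 48.4 and 69.8 CPM in male PGCs and 152, 164 and 125 in female PGCs, against 55.5 to 58.0 in male soma and 64.6 to 66.7 in female soma. Usp49, which acts on H2B, was at 39.5, 43.0 and 45.2 CPM in male PGCs and 129.9, 125 and 119.8 in female PGCs, against 37.3 to 38.6 in male soma and 46.2 to 49.5 in female soma. For both genes the female PGC libraries were clear of all others. In males Usp3 was not called (0.21, limma adjusted p = 0.0915) and Usp49 rose by 0.21 (limma adjusted p = 0.0102). The female difference exceeded the male one by 0.69 ± 0.16 for Usp3 (limma adjusted p of the difference = 0.00195) and 0.87 ± 0.09 for Usp49 (limma adjusted p of the difference = 5.22e-06). Usp49 shares 2181 exonic bases on the same strand with Gm20517, which makes its count uncertain.

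Usp22, the H2B protease of the SAGA coactivator, went the other way. It was at 369.9, 316 and 358 CPM in male PGCs, 319, 313 and 317 in male soma, 142, 134 and 167 in female PGCs, and 303, 261 and 324 in female soma. The 3 female PGC libraries lay below all others, and the difference was -0.79 ± 0.08 in females (limma adjusted p = 4.44e-07) and 0.20 ± 0.08 in males (limma adjusted p = 0.0286). Usp27x, an X-linked relative that can take its place in the H2B protease module, was at 4.30, 3.40 and 4.97 CPM in male PGCs, 3.40, 3.41 and 3.73 in female PGCs, 19.0, 19.8 and 21.5 in male soma, and 18.0, 23.8 and 18.8 in female soma. Its PGC libraries all lay below its soma libraries, with a fall of 1.37 ± 0.08 (limma adjusted p = 9.3e-10) that was alike in the sexes within error (-1.28 ± 0.12 and -1.46 ± 0.12). Usp21 fell in females (-0.55) and was not called in males (0.11, limma adjusted p = 0.2).

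**Figure D4:**
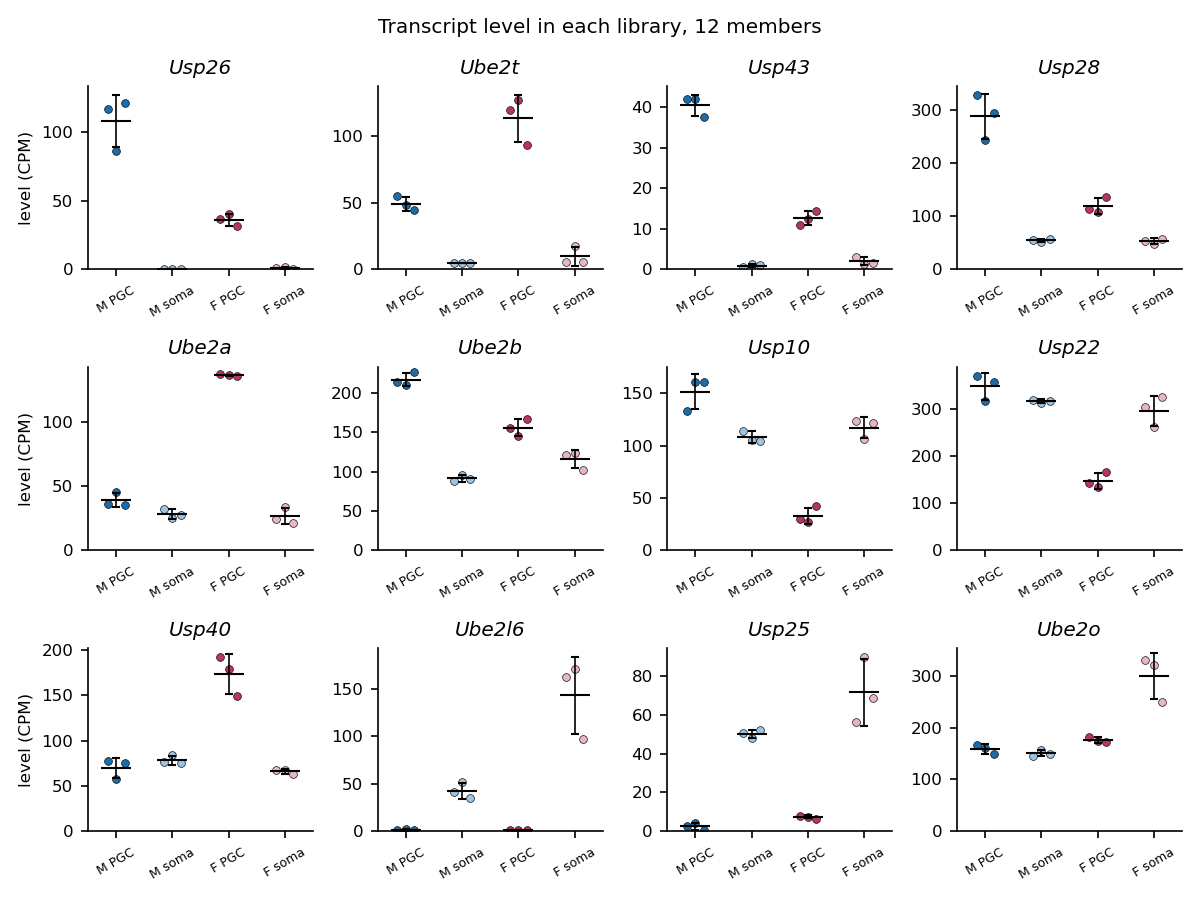
Transcript level (CPM, vertical axis, a separate scale in each panel) of 12 members in the 3 libraries of each group. Points are libraries, horizontal bars group means and error bars SD. The panels show a choice of members with large differences between PGCs and soma or between the sexes, with Ube2b and Usp22 for comparison. Not all members with such differences are shown.

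Proteases of DNA repair, replication and p53 control were divided, with 6 of 11 higher, 4 lower and 1 not called (median 0.25). Usp28, known for stabilising the transcription factor Myc and for its part in p53 signalling, was at 328, 244 and 294 CPM in male PGCs, 113, 107 and 137 in female PGCs, 55.5, 51.7 and 57.0 in male soma, and 53.3, 47.1 and 57.6 in female soma. The groups fell into 3 levels without overlap, male PGCs, female PGCs and both somas. Its rise was 1.99 ± 0.10 in males and 0.91 ± 0.10 in females, a difference of -1.08 ± 0.14 (limma adjusted p = 1.91e-05). Usp25, its closest relative in sequence, was at 2.68, 4.22 and 0.678 CPM in male PGCs, 8.06, 7.59 and 6.50 in female PGCs, 50.6, 48.2 and 52.1 in male soma, and 56.2, 90.1 and 68.5 in female soma. All PGC libraries lay far below all soma libraries, and Usp25 fell by 2.69 ± 0.18 (limma adjusted p = 2.49e-09). The pair thus moved in opposite directions between soma and PGCs.

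Usp10, which acts on p53 and binds the stress granule protein G3BP1, gave the largest difference between male and female PGCs. It was at 132, 161 and 161 CPM in male PGCs, 114, 105 and 104 in male soma, 29.7, 27.1 and 41.8 in female PGCs, and 124, 106 and 122 in female soma. The female PGC libraries were low and the male PGC libraries high against a soma that was alike in both sexes. Usp10 was lower in female than in male PGCs by 1.81 ± 0.11 on the log2 scale (-1.81, limma adjusted p = 9.14e-09), a 4.61-fold ratio in CPM. It rose from soma to PGCs in males (0.48 ± 0.11, limma adjusted p = 0.00078) and fell in females (-1.41 ± 0.11, limma adjusted p = 2.27e-08). Usp10 shares 99 exonic bases on the same strand with Gm20388, whose part in its count was not tested.

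Usp46 and Usp12 are paralogs that share the activators Wdr48 and Wdr20. Usp46 was at 24.8, 23.7 and 23.6 CPM in male PGCs, 37.1, 40.5 and 40.0 in male soma, 13.2, 8.83 and 15.6 in female PGCs, and 38.9, 42.2 and 39.8 in female soma. PGC libraries lay below soma libraries, female ones the lowest, and the fall was 0.81 ± 0.08 (-0.81, limma adjusted p = 2.59e-07), while Usp12 rose by 0.25 ± 0.05 (limma adjusted p = 0.000348). Usp1, which with Wdr48 removes ubiquitin from PCNA and FANCD2, rose by 0.63 ± 0.06 (limma adjusted p = 1.97e-07), and Wdr48 rose by 1.20 ± 0.05 (limma adjusted p = 2.15e-11). Usp37 (1.10), Usp7 (0.70) and Usp47 (0.28) rose too. Usp45 (-0.37) and the X-linked Usp11 (-0.24) fell, and Usp48 was not called (-0.02, limma adjusted p = 0.668). Neither Usp45 nor Usp11 was called lower with median centring.

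Of the 3 proteases that recycle ubiquitin, Usp14, which works on the proteasome, rose by 0.75 ± 0.04, and Usp5, which takes apart free ubiquitin chains, by 0.63 ± 0.04. Usp13, the paralog of Usp5, fell by 0.22 ± 0.09 (-0.22, limma adjusted p = 0.0348) and was low throughout, at 5.70 ± 1.37 to 12.0 ± 2.30 CPM. That fall was close to the -0.225 by which the library medians differed and was not called with median centring. Usp14 shares 2169 exonic bases with Thoc1 on the opposite strand. All 5 proteases tied to splicing, the nucleolus or messenger RNA rose: Usp42 (0.66), Usp15 (0.53), Usp4 (0.52), the splicing factor Usp39 (0.47) and the nucleolar Usp36 (0.24). Usp11, the third of the paralogs Usp4, Usp11 and Usp15, fell, as given above, but was not called lower with median centring.

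Proteases of endosomes, membranes, mitochondria and the endoplasmic reticulum were mixed, with 5 of 10 higher, 4 lower and 1 not called. Usp32 (1.03), the endosomal Usp8 (1.00), Usp19 (0.80), Usp2 (0.48) and Usp38 (0.33) rose, and Usp35 was not called (0.24, limma adjusted p = 0.0986). Apart from Usp25, described above, Usp33 (-0.39), Usp20 (-0.30) and the mitochondrial Usp30 (-0.26) fell. Usp20 and Usp30 were not called lower with median centring. Usp33 was at 59.8, 77.8 and 62.3 CPM in male PGCs, 83.9, 86.2 and 92.6 in male soma, 56.4, 41.2 and 58.5 in female PGCs, and 83.4, 98.2 and 79.2 in female soma. PGC libraries lay below all soma libraries, but the male difference alone did not pass the threshold (-0.22 ± 0.10, limma adjusted p = 0.0648). Usp32 was at 91.5, 92.6 and 104 CPM in male PGCs, 59.3, 60.0 and 68.4 in male soma, 299, 294 and 235 in female PGCs, and 62.0, 119 and 54.5 in female soma. Its female soma replicate 2, at 119 CPM, is again the library with the highest germ cell marker sum, whose part was not tested.

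All 7 proteases without an assigned group rose. Usp43 was at 42.0, 41.9 and 37.5 CPM in male PGCs, 0.437, 1.33 and 0.979 in male soma, 11.0, 12.4 and 14.4 in female PGCs, and 3.11, 1.23 and 1.65 in female soma. Male PGCs were the highest and female PGCs next. The rise of 3.40 ± 0.17 in males exceeded the 1.60 ± 0.17 of females by 1.80 (interaction -1.80 ± 0.25, limma adjusted p = 3.67e-05). The part of germ cell transcripts in female soma in this difference was not tested. Usp34, a very large protease that acts on the Wnt pathway protein axin, was at 456, 449 and 559 CPM in male PGCs, 598, 587 and 535 in female PGCs, 178, 192 and 206 in male soma, and 192, 226 and 213 in female soma. Its rise of 1.16 ± 0.05 (limma adjusted p = 4.9e-11) was without overlap, and it shares 1977 exonic bases with Ahsa2 on the opposite strand. Usp31 was at 107, 95.9 and 128 CPM in male PGCs, 176, 157 and 167 in female PGCs, 48.6, 44.3 and 39.5 in male soma, and 49.3, 59.1 and 52.9 in female soma. It rose by 1.19 ± 0.06 (limma adjusted p = 2.8e-10), again without overlap.

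Usp40 was at 77.1, 57.3 and 75.4 CPM in male PGCs, 76.1, 83.5 and 74.8 in male soma, 192, 179 and 149.5 in female PGCs, and 67.9, 67.7 and 63.2 in female soma. Only the female PGC libraries stood apart. The difference was 1.08 ± 0.09 in females (limma adjusted p = 1.14e-07) and -0.04 ± 0.09 in males (limma adjusted p = 0.702), an interaction of 1.12 ± 0.13 (limma adjusted p = 1.23e-05). Usp53 (0.52), Usp54 (0.44) and Usp24 (0.13) completed the group.

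The sexes were then compared for the signed PGC minus soma difference. In males 50 members rose (39.1% of all genes) and 11 fell (43.7% of all genes), and in females 45 rose (38.7%) and 18 fell (42.3%). With median centring the male split was 60 and 5 (47.8% and 36% of all genes). The signed difference was higher in females for 12 members (27.9% of all genes) and lower for 28 (28.9% of all genes), with a median of -0.17. A lower signed difference is a smaller rise, a larger fall or a fall in place of a rise. In size, regardless of sign, the difference was larger in females for 9 of the 12 and for 11 of the 28, Ube2l6 and Usp46 among the latter. Of the 28, 24 were also lower in female than in male PGCs, and of the 12, 11 were higher in female PGCs. With voom on the recovered reads, 34 of these 40 differences passed the threshold in the same direction and 6 kept their direction without passing it. Over all members voom gave 16 higher and 23 lower (30% and 22.2% of all genes). By cell number, 27 members had a higher signed difference in females (42.8% of all genes) and 4 a lower one (5.16% of all genes). Without male soma replicate 3 the numbers were 26 and 8 (40.9% and 9.22% of all genes), and with median centring 11 and 31 (24.8% and 29.6% of all genes).

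**Figure D5:**
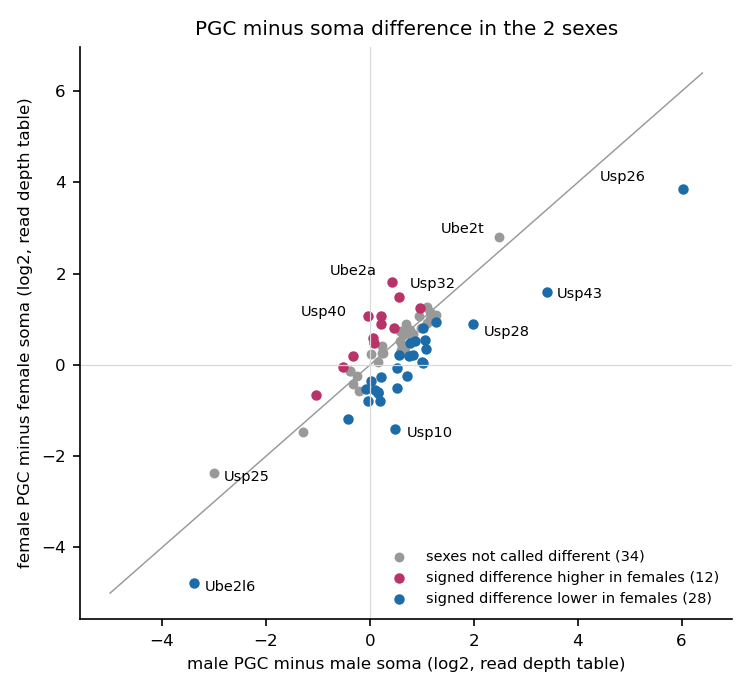
PGC minus soma log2 difference in males (horizontal axis) and females (vertical axis) for the 74 members in the read depth table. Members on the grey diagonal have the same difference in both sexes, blue points (28) lie below it with a lower and red points (12) above it with a higher signed difference in females by the interaction test, and Usp10 and Ube2a lie far to either side of it.

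Between the PGCs of the sexes, 18 members were higher in females (32.8% of all genes) and 32 lower (32.5% of all genes). The split depended on the scale: with voom on the recovered reads it was 24 higher and 26 lower (39.1% and 27.2% of all genes), and the median over all genes moved from 0.01 to 0.18. In CPM, the female PGC libraries lay above the male ones for 27 members (40.6% of all genes) and below them for 26 (29% of all genes). The largest in the read depth table were Usp10 (-1.81), Usp26 (-1.41), Usp43 (-1.32) and Ube2a (1.29), followed by Usp28 (-1.14), Usp22 (-1.10), Usp32 (1.09), Usp49 (1.08) and Ube2q1 (-1.02). Among the 4 members on the X chromosome, Ube2a was higher in female PGCs, Usp26 and Usp11 (-0.38) were lower, and Usp27x did not pass the threshold (-0.20). By cell number, 7 members were higher in female PGCs (24.3% of all genes) and 15 lower (17.7% of all genes), or 15 and 24 (31.3% and 26% of all genes) with male soma replicate 3 left out of the common estimate of spread. With median centring they were 16 and 33 (31.4% and 34.7% of all genes).

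Soma differed less between the sexes. Only 9 members were higher in female soma (13.3% of all genes) and 4 lower (11% of all genes), and in CPM the female libraries lay above the male ones for 16 (22.7% of all genes) and below for 9 (18.1% of all genes). Leaving out single libraries moved the limma counts to between 3 and 9 and between 2 and 5. Without male soma replicate 1 they were 3 and 2, without female soma replicate 2 they were 5 and 2, and without male soma replicate 2 or 3 the higher count was 5 or 4. The largest were Ube2l6 (1.37) and Ube2o (0.76), given above, then Usp2 and Ube2e2. Usp2, known for its link to the circadian clock, was at 24.0, 21.3 and 28.2 CPM in female soma and 10.5, 14.6 and 13.9 in male soma, with 29.3, 18.9 and 30.8 in male PGCs and 31.3, 27.6 and 30.8 in female PGCs. Male soma was the low group, and the somas differed by 0.60 ± 0.14 (limma adjusted p = 0.00586). Ube2e2 was at 20.8, 18.3 and 24.3 CPM in female soma and 41.2, 30.7 and 29.4 in male soma, against 20.8 to 23.0 in male PGCs and 23.6 to 28.6 in female PGCs. Here male soma was the high group (-0.48 ± 0.11, limma adjusted p = 0.00717).

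The rest of the ubiquitin system was counted from lists of genes outside the symbol rule. For each list the background is again 41.4% of all genes higher and 45.3% lower. Among E1 enzymes, 8 of 11 rose and 2 fell. Uba1y, the Y-linked copy of the ubiquitin E1, was at 411 ± 38.3 CPM in male PGCs (SD, n = 3) and 2.01 ± 1.02 in male soma. Female PGCs, which have no Y chromosome, had 1.02 ± 0.356 CPM. Uba6, the other E1 for ubiquitin, rose by 1.60 ± 0.09, and Nae1, a subunit of the NEDD8 E1, by 1.70 ± 0.06. Among ubiquitin and related modifiers, 8 of 11 rose and 1 fell, with Sumo2 at 0.71 and Ufm1 at -1.11. Of 10 E2-like genes with other names, 6 rose and 1 fell, led by Cdc34 (1.24) and Birc6 (0.88).

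Other proteases that remove ubiquitin or its relatives were read against the same 41.4% higher and 45.3% lower. In the families other than Usp and the metalloproteases, 16 of 25 rose and 7 fell. Uchl1, a neuronal and germ cell ubiquitin hydrolase, was at 311 ± 54.6 CPM in male PGCs against 8.02 ± 1.49 in the soma of males, while females had 56.0 ± 7.92 CPM in PGCs and 52.2 ± 28.1 in soma (SD, n = 3). Otud4 rose by 1.58 ± 0.04. Of 11 genes with the domain of the JAMM metalloproteases 6 rose and 5 fell, and the share that fell was close to that of all genes. Prpf8 (0.55), Eif3h (0.46) and Cops6 (0.79) among them are not active proteases. Active members of the list included the proteasome subunit Psmd14, at 0.97, and Stambp, at -1.17. Of 10 SUMO and NEDD8 proteases 8 rose and 2 fell, with Senp8, which matures NEDD8, at 1.84 and Senp7 at -1.88. The ubiquitin protease Cyld rose (0.68). Its list also held Pan2, a subunit of a deadenylase, which rose (0.77), and Usp6nl, which regulates Rab proteins and was not called (-0.02).

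Ligases and partners were counted against the same background. Among ligases that work with the members, 41 of 60 rose and 16 fell. Trim71 (5.03) and Rnf17 (4.67), a germ cell protein, rose the most, and Rad18, the ligase partner of Ube2a and Ube2b, rose by 1.53 ± 0.08 to 78.8 ± 1.72 CPM in male and 78.4 ± 7.59 in female PGCs. Anaphase-promoting complex genes rose in 12 of 17 cases and fell in 3, with Anapc15 at 1.35 and Cdc26 at -1.22. Cullins and their regulators rose in 17 of 28 cases and fell in 9, with the largest changes in Klhl9 (-1.81) and Cand2 (-1.62). Usp partners rose in 5 of 12 cases and fell in 4, and the share that rose was close to the 41.4% of all genes. They included Wdr48 at 1.20 and Atxn7l1, of the SAGA deubiquitinase module family, at -1.88.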

How the data were processed

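RNA from sorted E13.5 mouse PGCs and soma was sequenced in 12 libraries, 3 per group, with spike-in RNA added by cell number and a directional messenger RNA kit, per the labels' protocols. Per the submitters' processing notes, the tools were edgeR 3.14.0, limma 3.28.14, DESeq2 1.12.3 and R 3.3.0 beside HTSeq 0.6.1p1, TopHat2 2.0.9 and Trim Galore 0.4.0, all without a stated role, and the build was mm10. Neither the gene filter nor whether reads were counted by strand is stated, and reads of overlapping genes on opposite strands may be mixed.

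In all, the authors deposited 2 tables of log2 values over 12845 genes, one read here as normalized to cell number (its file name abbreviates this) and one normalized to read depth. In each library 100% of the cell number values inverted to whole reads within 0.001 reads, with an offset of 0.5 reads, and these gave CPM. TPM used the longest basic protein-coding transcript of GENCODE vM21, where all 74 members were located by symbol. Counts of replicates differed by more than sampling noise (chi-square over its degrees of freedom 5.43 to 30.4), so no library was taken as a repeat deposit of another. Intervals between replicates cover these libraries only.

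Both tables were fitted with limma 3.58.1 in R 4.3.3 (4 group means, intensity trend, Benjamini-Hochberg over all genes, threshold 0.05), and the fit was tested on simulated data. Alternatives were the lowest 25% of genes left out, median centring, no trend, a replicate block, each library left out, voom, and pseudocounts of 1 and 0.1 CPM. Values in every library were given for the 8 largest rises and 8 largest falls, the 6 largest sex differences of the PGC minus soma difference, the 4 largest sex differences in PGCs and in soma, and the 4 highest levels per length, with close paralogs and a few role group members added. One member counts in all totals and is not reported here by itself. Replicate numbers were not taken to pair the samples. The members, role groups and lists were chosen with earlier results of these data known.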

Additional observations from a re-analysis of the deposited data

Results flagged for a closer look

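Each result named here was picked out because the PGC minus soma difference of a member differed between the sexes in the interaction test of limma (adjusted p under 0.05, read depth table). Values are female minus male log2 differences of the signed PGC minus soma difference, so a value below 0 is a smaller rise, a larger fall or a fall in place of a rise in females.

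The signed difference was lower in females for 28 members, of which 27 are named. Among the conjugating enzymes these were Ube2l6 (-1.40), Ube2d1 (-1.02), Ube2q1 (-0.98), Ube2c (-0.95), Ube2r2 (-0.76), Ube2o (-0.76), Ube2b (-0.73), Ube2w (-0.39), Ube2n (-0.32) and Ube2g1 (-0.20). Among the proteases they were led by Usp26 (-2.19), Usp10 (-1.89), Usp43 (-1.80), Usp28 (-1.08) and Usp22 (-0.99). Usp35 (-0.96), Usp46 (-0.77), Usp13 (-0.73), Usp21 (-0.65), Usp4 (-0.61) and Usp36 (-0.59) followed. Closer to 0 were those of Usp2 (-0.55), Usp19 (-0.52), Usp48 (-0.47), Usp20 (-0.46), Usp7 (-0.34) and Usp5 (-0.28).

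The signed difference was higher in females for 12 members. These were Ube2a (1.40), Ube2e2 (0.53), Ube2e3 (0.47) and Ube2m (0.37) among the conjugating enzymes. The proteases were Usp40 (1.12), Usp32 (0.92), Usp49 (0.87), Usp3 (0.69), Usp38 (0.54), Usp47 (0.41), Usp1 (0.35) and Usp37 (0.28).

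For Usp26, Ube2l6, Usp2, Usp20, Usp5 and Ube2g1 the difference did not pass the threshold with voom on the recovered reads. Ube2l6, Ube2o and Usp2 were called higher in female soma and were not called between the PGCs of the sexes.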

How the results depend on the processing

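Counts of called members kept within 1.5 times their reported value in most settings. With median centring, 8 members were lower in PGCs than in soma in the read depth table and 8 in the cell number table, and 5 were lower in male PGCs. In soma, the count lower in females was 2 without the intensity trend and 2 with voom. With each library left out in turn, the mean comparison ranged from 49 to 51 higher and 17 to 19 lower in the read depth table and stayed at 71 and 2 in the cell number table. Male counts ranged from 48 to 51 and 10 to 12, female counts from 43 to 45 and 17 to 18, and the interaction from 11 to 13 and 25 to 28. Counts between PGCs of the sexes ranged from 15 to 18 and 28 to 33, and those between somas from 3 to 9 and 2 to 5. In the cell number table without male soma replicate 3, an alternative chosen after seeing the data, the interaction gave 26 and 8 and the PGC comparison 15 and 24. With median centring of that table, also added then, they gave 11 and 31, and 16 and 33. The cause of these moves was not tested. Among named members, Usp26 and Ube2l6 (interaction, voom, -3.22 and -1.54) and Usp26 (PGCs, log2(CPM + 0.1), -1.58) missed the threshold, and Ube2v1 passed it with median centring (0.33) and without male soma replicate 1, female PGC replicate 1 or female soma replicate 3. No direction reversed. Deviations of same-numbered libraries, of the same or different sex, correlated at -0.361 to 0.071 in the read depth table, so the numbers were not taken as pairs. With 3 libraries per group these correlations cannot exclude pairing. The replicate block, with 50 higher and 19 lower, changed no count by over 1.5 times. Depth limits Usp26, Usp43 and Usp44 in soma, where a few reads carry the level.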
